A study of Mus musculus with 4 samples.

Results

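Cardiac sarcomere and Z-disc genes were examined in the ventricles of ERRα knockout mice (2 arrays), which lack the estrogen-related receptor α encoded by Esrra, and of wild-type mice (2 arrays). Both groups were sampled at baseline. The rule named 32 genes of the thick filament, thin filament, Z-disc, M-band and muscle assembly, and took every probe set annotated to exactly 1 of them. It found 34 probe sets for 26 genes, of 12422 probe sets that were not controls. Myoz2, Myot, Nebl, Tmod1, Ttn and Trim63 had no such probe set and were not analysed here. The labels number 2 samples per genotype and do not say that they were separate animals, so p-values reflect only how these samples vary, part of which could be technical. The strain, sex and age of the mice and the structure of the targeted allele are not given in the sources used here. Each value is an Affymetrix array signal, a linear intensity scaled by the depositors to the same trimmed mean on every array. Levels of different probe sets cannot be set against each other, because each probe set has its own response.

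The sarcomere is the contractile unit of striated muscle. Thick filaments of myosin pull on thin filaments of actin, which carry the troponins and tropomyosin that make contraction depend on calcium. Thin filaments are anchored at the Z-disc and thick filaments are held in register at the M-band. In the adult mouse ventricle the main isoforms are α-myosin heavy chain (Myh6) and the cardiac troponins, while β-myosin heavy chain (Myh7) and slow skeletal troponin I (Tnni1) predominate before birth. ERRα is an orphan nuclear receptor best known for regulating genes of mitochondrial energy metabolism in heart.

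No sarcomere or Z-disc probe set passed the test between genotypes, and most of the differences were small. Of the 34 probe sets, 28 (25 genes) had a mean signal over the 4 arrays of at least 350.6, the 40th percentile, and were tested. Of these, 0 passed limma's adjusted p threshold of 0.05 over all 7453 probe sets, where 0.0134% of all probe sets passed (1 of 7453, an Esrra probe set). At an unadjusted p under 0.05, 1 of 28 was higher in knockout and 0 were lower, against 4.13% and 2.66% of all probe sets. Adjusted p-values of the 28 ran from 0.722 to 0.976. The 95% intervals of the log2 differences reached a median of 0.618 to either side of the estimate, from 0.516 to 1.34. These intervals are not adjusted for the number of probe sets tested, and the adjusted threshold asks for more than an interval without 0.

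Without a model, both knockout arrays lay below both wild-type arrays for 7 of the 28 probe sets, against 16.7% of all probe sets, and above them for 3, against 20.7%. The 7 were those of Mybpc3, Smyd1, Des, Mb, Tnnt2, Tnni3 and Tpm1, and the 3 were those of Tnni1, Tcap and the stronger Capzb probe set. With a difference of at least 1.5-fold as well, 1 of 28 was lower (Smyd1) and 0 were higher, against 4.2% and 6.84% of all probe sets. The plot of signals by array shows every tested probe set.

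**Figure D1:**
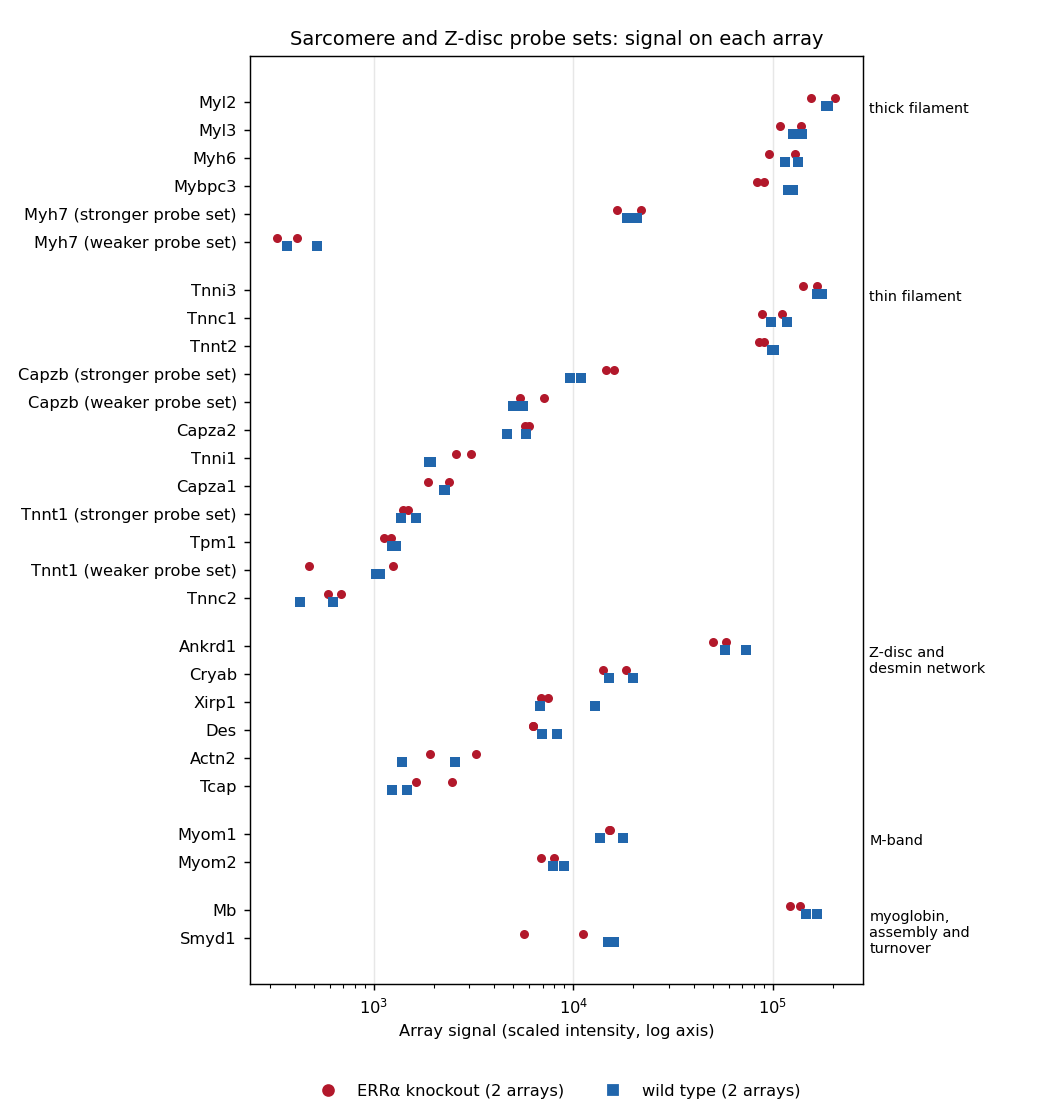
Signal of each tested sarcomere and Z-disc probe set on every array (log axis), with the 2 ERRα knockout arrays as circles and the 2 wild-type arrays as squares, grouped by place in the sarcomere. Mybpc3, Smyd1, Tnnt2 and Des have both circles left of both squares, and Tnni1, Tcap and the stronger Capzb probe set have both circles right of both squares.

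The knockout label was checked on Esrra. The stronger of its 2 probe sets gave 922 and 1050.2 in knockout ventricles, against 8598 and 8039 in wild-type ventricles (log2 -3.08, SE 0.21, limma adjusted p = 0.179). The weaker gave 83.6 and 55.2 in knockout, below the floor of 110 set on low signals, against 2688 and 2828 in wild type, and it was the probe set that passed (limma adjusted p = 0.0441). Whether the probes fall within the deleted part is not given in the labels.

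The differences of the thick filament genes were small, with Mybpc3 the farthest from 0. Mybpc3 encodes cardiac myosin-binding protein C, which binds myosin along the thick filament and tunes the pace of contraction. Its signal was 90422 and 83132 in knockout ventricles, against 126447 and 118462 in wild-type ventricles. Both knockout arrays were lower, and the gap between the groups was wider than the gap within either. The mean was 86777 ± 5154 in knockout and 122454 ± 5646 in wild type (SD, n = 2 each), a log2 difference of -0.50 (SE 0.20, 95% interval -1.03 to 0.03) that did not pass (limma adjusted p = 0.744). Mybpc3 was singled out after its values were seen.

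Both myosin heavy chains had overlapping groups. Myh6, the fast α chain of adult mouse ventricle, gave 95332 and 128291 in knockout, against 115607 and 133445 in wild type (log2 -0.17, SE 0.25, adjusted p = 0.916). Myh7, the slower β chain, gave 16566 and 21737 in knockout, against 18534 and 20949 in wild type on its stronger probe set (log2 -0.05, SE 0.24, adjusted p = 0.965). In both genes knockout replicate 1 was the lowest array. A weaker Myh7 probe set gave 328.7 and 411.1 in knockout, against 365.3 and 519.7 in wild type (log2 -0.25, adjusted p = 0.877). Both Myh7 probe sets have a suffix that marks possible cross-hybridization, and Myh6 and Myh7 are neighbouring genes with near-identical coding sequence, so signal from each may reach the other's probes.

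The ventricular light chains were among the brightest probe sets of the arrays. Myl2, the regulatory light chain, gave 154809 and 205416 in knockout, against 184675 and 189007 in wild type (log2 -0.07, SE 0.24). Myl3, the essential light chain, gave 108287 and 138348 in knockout, against 125785 and 139561 in wild type (log2 -0.11, SE 0.23). The wild-type arrays lay between the knockout arrays for Myl2 and overlapped them for Myl3. The means of all 5 thick filament genes were lower in knockout, against 48.5% of all genes tested. Of the 5, 1 (Mybpc3) was lower without overlap, against 17.5% of all genes tested. All 5 were among the strongest 5% of genes by mean signal, where 182 of 283 genes were lower. The median log2 difference of the 5 was -0.11. Without knockout replicate 1 that median was 0.06.

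Among troponins, the adult cardiac subunits had slightly lower means in knockout and slow skeletal troponin I a higher one, and none passed the test. Tnnt2, the cardiac tropomyosin-binding subunit, gave 85428 and 89711 in knockout, against 99494 and 101481 in wild type (log2 -0.20, SE 0.20, limma adjusted p = 0.858). Tnni3, the cardiac inhibitory subunit, gave 141450.3 and 165572 in knockout, against 176384 and 165705 in wild type (log2 -0.16, SE 0.21, adjusted p = 0.907). Neither gene's groups overlapped, although for Tnni3 the higher knockout array and the lower wild-type array were nearly equal. Tnnc1, the calcium-binding subunit of cardiac and slow muscle, gave 88412 and 110746 in knockout, against 97858 and 118236 in wild type (log2 -0.12, SE 0.24), and its groups overlapped.

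Tnni1, the slow skeletal troponin I that fetal heart expresses, gave 3071 and 2573 in knockout, against 1924 and 1894 in wild type. Both knockout arrays were above both wild-type arrays, which differed little from each other. The mean was 2822 ± 352 in knockout and 1909 ± 21.1 in wild type (SD, n = 2 each), with a log2 difference of 0.56 (SE 0.21, limma adjusted p = 0.730). It stayed between 0.43 and 0.69 without any 1 array. Tnnt1, the slow skeletal troponin T, gave 1398 and 1484 in knockout, against 1627 and 1373 in wild type on its stronger probe set (log2 -0.05), and 1253 and 474.1 against 1073 and 1023 on the weaker (log2 -0.44). Tnnc2, the fast skeletal troponin C, gave 683.2 and 585.9 in knockout, against 425.4 and 623 in wild type (log2 0.30, and 0.022 to 0.57 without each array). This Tnnc2 probe set and the weaker Tnnt1 probe set have a suffix that marks possible cross-hybridization. The second Tnnc2 probe set, without that suffix, lay under the filter, with 30.8 and 49.8 in knockout, against 105 and 22.7 in wild type. The groups of Tnnt1 and Tnnc2 overlapped on each of these probe sets.

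The pairs of skeletal and cardiac isoforms were also compared within each array, as the log2 signal of the skeletal or fetal isoform minus that of the adult cardiac one. This difference does not depend on a constant by which an array was scaled, and only its change between genotypes is read. The brightest probe set of each gene was used. For Tnni1 against Tnni3 it was 0.60 and 0.12 in the knockout samples, against -0.39 and -0.325 in the wild-type samples, relative to its mean over the 4 arrays (knockout minus wild type 0.72). For Myh7 against Myh6 the genotypes differed by 0.11, for Tnnt1 against Tnnt2 by 0.15 and for Tnnc2 against Tnnc1 by 0.42. On these probe sets the knockout arrays lay above the wild-type arrays in all 4 pairs, but some arrays were nearly equal. For Tnnt1 against Tnnt2, the lower knockout array was at 0.0656 and the higher wild-type array at 0.0637. For Tnnc2 against Tnnc1 the lower knockout array, here replicate 2, was at -0.0644 and the higher wild-type array, also replicate 2, at -0.0702. Of single genes tested, 19.9% were higher in knockout without overlap, and no such share was computed over other pairs. The 4 adult cardiac isoforms were among the 100 brightest probe sets, of which 61 were lowest on knockout replicate 1. The part of signal level in the pair differences was not tested. The exact two-sided permutation p was 0.333 in each pair (0.333 also after adjustment over the 4 pairs), the smallest that 2 against 2 arrays allow. With the weaker probe set of the first gene, the difference was -0.08 for Myh7 against Myh6 and -0.24 for Tnnt1 against Tnnt2, and the groups overlapped in both. These weaker probe sets were compared after the values were seen. Without each array the difference ran from 0.48 to 0.96 for Tnni1 against Tnni3, 0.14 to 0.69 for Tnnc2 against Tnnc1, and 0.0093 to 0.28 for Tnnt1 against Tnnt2, lowest without wild-type replicate 2. Myoz1 against Myoz2 was not computed, since Myoz2 was not analysed here. Tnni3 and Tnnt1 are adjacent protein-coding genes, and Tnni1 and Tnnt2 have 1 protein-coding gene between them, so these neighbours belong to different pairs.

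The remaining thin filament genes encode tropomyosin and the capping protein CapZ, which closes the barbed ends of thin filaments at the Z-disc. Capzb, the β subunit of CapZ, gave 14588 and 15948 in knockout, against 10917 and 9633 in wild type on its strongest probe set. Both knockout arrays were higher, with a log2 difference of 0.57 (SE 0.21, 95% interval 0.02 to 1.12), an unadjusted p of 0.0437 and a limma adjusted p of 0.722, the lowest of any member. A second Capzb probe set gave 5369 and 7082 in knockout, against 5594 and 4968 in wild type (log2 0.23), with overlap, and the third lay under the filter. Both tested Capzb probe sets have a suffix for possible cross-hybridization. The α subunits Capza1 and Capza2 gave overlapping groups, with log2 differences of -0.10 and 0.16. Tpm1, α-tropomyosin, gave 1213 and 1117 in knockout, against 1297 and 1237 in wild type, a log2 difference of -0.12 (adjusted p = 0.920), and was named after its values were seen. Of 10 thin filament genes tested, 6 were lower and 4 higher, with a median log2 difference of -0.08.

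Genes of the Z-disc and the desmin network went in both directions. Tcap, telethonin, which joins the ends of titin molecules at the Z-disc, gave 1619 and 2468 in knockout, against 1463 and 1229 in wild type. Both knockout arrays were higher, but they differed more from each other than the lower one did from wild type (log2 0.58, SE 0.29, limma adjusted p = 0.791; 0.27 without knockout replicate 2). Des, desmin, the intermediate filament that links neighbouring Z-discs, gave 6268 and 6250.1 in knockout, against 6990.0 and 8236 in wild type (log2 -0.28, SE 0.21, adjusted p = 0.829). Tcap and Des were named after their values were seen.

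The other Z-disc genes had overlapping groups. Actn2, sarcomeric α-actinin, which cross-links thin filaments, gave 1913 and 3268 in knockout, against 2542 and 1391 in wild type (log2 0.41, SE 0.43). Ankrd1, a load-responsive ankyrin repeat protein that binds titin in the I-band, gave 50156 and 58059 in knockout, against 72968 and 57549 in wild type (log2 -0.26, SE 0.24). Xirp1, an actin-binding protein of the intercalated disc, gave 7496 and 6888 in knockout, against 12826 and 6798 in wild type, so that its log2 difference of -0.38 rested on wild-type replicate 1 and was 0.08 without it. Cryab, αB-crystallin, a chaperone of desmin and Z-disc proteins, had a log2 difference of -0.11 on its bright probe set. That probe set has a suffix for possible cross-hybridization, and the other Cryab probe set lay under the filter. Myoz1, a calcineurin-binding Z-disc protein mainly of fast skeletal muscle, gave 260.7 and 624.3 in knockout, against 314.7 and 198.9 in wild type. Its mean of 349.7 was just under the filter, so it was not tested. Of 6 Z-disc genes tested, 4 were lower and 2 higher, with a median log2 difference of -0.19 that was 0.09 without wild-type replicate 1.

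The M-band genes had overlapping groups. Myom1, myomesin, which cross-links myosin filaments, gave 15213 and 15104 in knockout, against 13647 and 17775 in wild type (log2 -0.04). Myom2, the M-protein, gave 6883 and 8023 in knockout, against 8939 and 7916 in wild type (log2 -0.18).

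Of the genes outside the filaments, Smyd1 had the largest difference of any tested member. Smyd1 is a muscle-restricted methyltransferase and myosin chaperone needed for sarcomere assembly. It gave 11133 and 5654 in knockout, against 14987 and 16049.5 in wild type. Both knockout arrays were below the wild-type arrays but differed more from each other than the higher one did from wild type. The log2 difference was -0.97 (SE 0.38, 95% interval -1.97 to 0.04, limma adjusted p = 0.744). Leaving out knockout replicate 2 gave -0.48, and leaving out knockout replicate 1 gave -1.46. A second Smyd1 probe set lay under the filter, with 500.6 and 140.2 in knockout, against 118.8 and 384.1 in wild type. Mb, myoglobin, the oxygen store of oxidative muscle, gave 121319 and 137201 in knockout, against 166549 and 145684 in wild type (log2 -0.27, SE 0.21, adjusted p = 0.836), without overlap. Mb was named after its values were seen, and its second probe set lay under the filter.

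**Figure D2:**
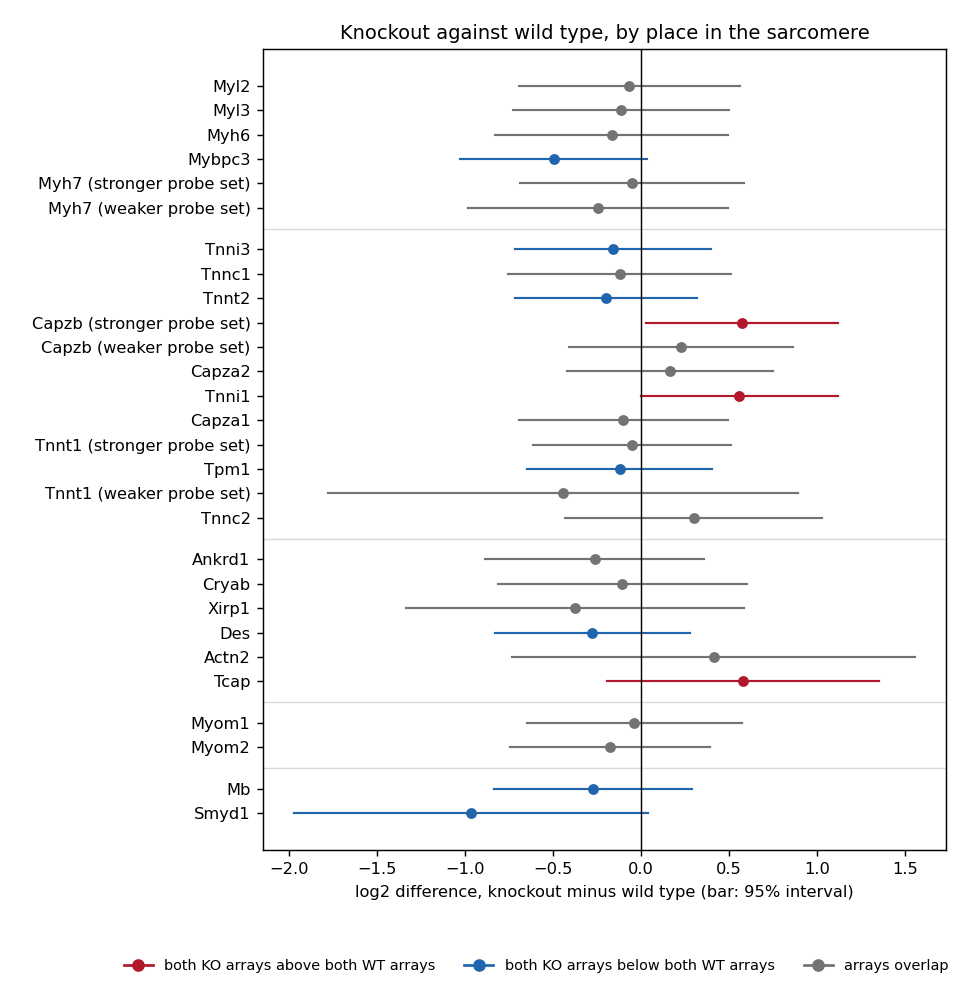
Log2 difference, knockout minus wild type, for each tested sarcomere and Z-disc probe set with its 95% interval from the fit over all probe sets. Colours mark whether both knockout arrays lay above or below both wild-type arrays; the interval excludes 0 for the stronger Capzb probe set (0.02 to 1.12) and not for the others.

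Across the list, more genes were lower than higher in knockout, and this rested in part on 1 array. With the brightest probe set of each gene, the knockout mean was the lower one in 19 of 25 genes, against 48.5% of 5653 genes tested. Without overlap, 7 of 25 were lower and 3 higher, against 17.5% and 19.9% of those tested. The median log2 difference was -0.11, against 0.01 over all genes tested and -0.07 over the strongest 5% of genes. Of the 25 genes, 12 belonged to that strongest 5%, and 12 of those 12 were lower, where 182 of all 283 such genes were lower. The 13 weaker sarcomere genes were divided, with 7 lower and 6 higher and a median of -0.05.

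**Figure D3:**
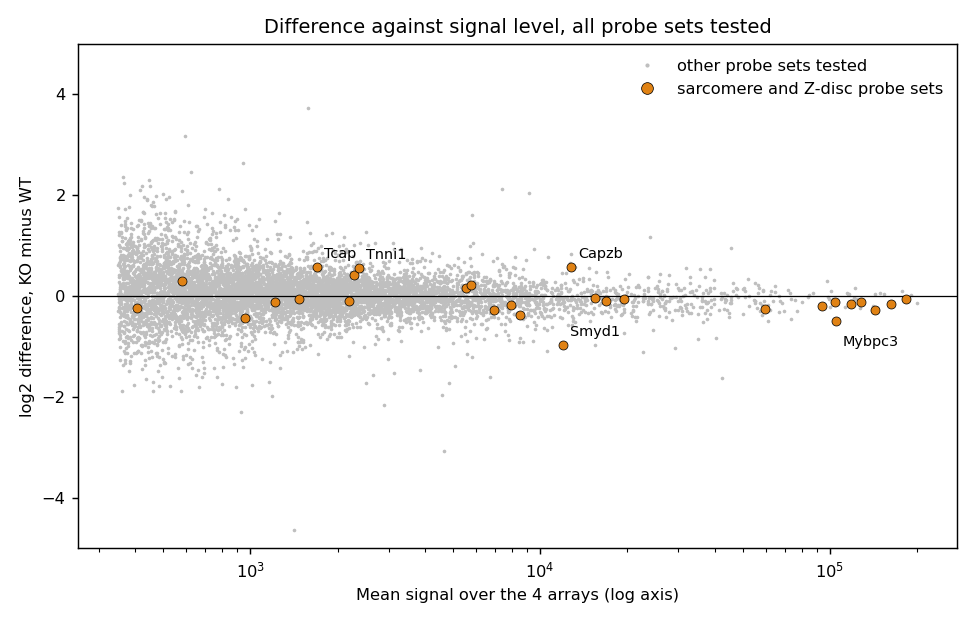
Log2 difference, knockout minus wild type, against the mean signal over the 4 arrays (log axis) for all 7453 probe sets tested, with the 28 sarcomere and Z-disc probe sets in orange. The brightest members lie just below 0, Mybpc3 lower than its neighbours in signal, and the labelled Smyd1, Tcap, Tnni1 and stronger Capzb probe set stand farthest from 0 among members at moderate signal.

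By their median the sarcomere genes were low on knockout replicate 1, which was the lowest array for 11 of the 25 genes. Knockout replicate 2 was lowest for 5, Smyd1 and Mybpc3 among them, and wild-type replicates 1 and 2 for 3 and 6. The median deviation of the sarcomere genes from each gene's mean over the 4 arrays was -0.14 on knockout replicate 1. It was 0.03 on knockout replicate 2, against 0.06 and 0.04 for wild type. Over the strongest 5% of all genes the same medians were -0.09 and 0.03 in knockout, against 0.03 and 0.03 in wild type. Of the 9 sarcomere genes among the 100 brightest probe sets, 8 were lowest on knockout replicate 1, as were 61 of all 100. Without knockout replicate 1 the median log2 difference of the list was 0.02, with 13 of 26 genes lower, and without knockout replicate 2 it was -0.27, with 18 of 25 lower. The ratio of 5' to 3' signal of β-actin, a sign of RNA integrity, was 0.694 and 0.813 in knockout, against 0.966 and 0.909 in wild type, and the same ratio of Gapdh was 0.994 and 0.968 in knockout, against 1.039 and 1.015 in wild type. The part of RNA integrity in these differences was not tested.

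**Figure D4:**
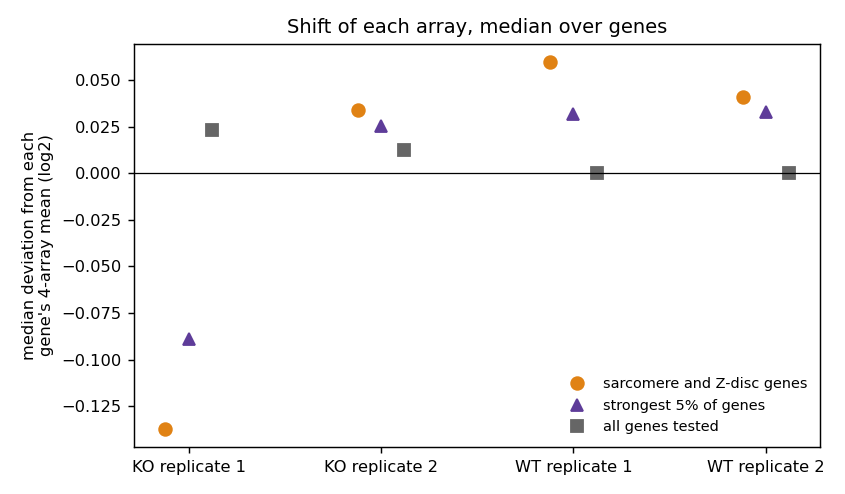
Median deviation of each array from the 4-array mean of every gene (log2), for the 25 sarcomere and Z-disc genes, for the strongest 5% of genes and for all genes tested. Knockout replicate 1 lies at -0.14 for the sarcomere genes and -0.09 for the strongest genes, and the other 3 arrays lie between 0.03 and 0.06 for both.

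Further genes of the sarcomere and its upkeep, outside the 32 named, showed no common direction. Of 63 such genes listed, 34 had a probe set and 27 were tested. None passed (limma, 0 of 27), with 2 higher and 1 lower at an unadjusted p under 0.05, against 3.77% and 2.74% of all genes tested. In knockout 14 were lower and 13 higher, with a median log2 difference of -0.01. Actn1, the non-muscle α-actinin, gave 2396 and 2788 in knockout, against 1536 and 1635 in wild type on its brightest probe set (log2 0.71, limma adjusted p = 0.694). That probe set has a suffix for possible cross-hybridization. A weaker Actn1 probe set, also with such a suffix, differed less, with 620.9 and 563.4 in knockout, against 481.5 and 543.7 in wild type. Myl1, the fast skeletal light chain, gave 10838 and 6419 in knockout, against 4344 and 1706 in wild type (log2 1.62, adjusted p = 0.694). Bag3, a cochaperone of Z-disc protein turnover, gave 9288 and 7057 in knockout, against 14164 and 11761 in wild type (log2 -0.67, adjusted p = 0.725). Nrap, an actin-binding protein of growing myofibrils, had a log2 difference of -0.33 (adjusted p = 0.823).

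Markers of other muscle types and other cells were measured in the same tissue, and in bulk tissue fewer cells of a type and less RNA per cell cannot be told apart. All 9 cardiomyocyte markers measured had a mean signal of at least 11951, and their summed signal was 706359 and 837390.2 in knockout, against 904567 and 818597 in wild type. The mean was lower in knockout for 8 of the 9, against 48.5% of all genes tested, with a median log2 difference of -0.13. Of the 9, 4 are sarcomere genes described above. Much of the gap between the wild-type arrays came from the natriuretic peptide gene Nppb, with 20537 and 18470 in knockout, against 87182 and 14065 in wild type. Without Nppb the sums were 685822 and 818920 in knockout, against 817384 and 804532 in wild type. Among skeletal muscle markers, 8 of 12 passed the filter, with Myh1, Myh2, Tnni2 and Tnnt3 under it. The summed signal of this list was 24006 and 22370.3 in knockout, against 21244 and 21311 in wild type. On each array 10617 to 12525 of it was creatine kinase Ckm, which is also in the cardiomyocyte list and was lower in knockout (log2 -0.13). Without Ckm the sums were 13389 and 10142 in knockout, against 8811 and 8786 in wild type. Much of this gap lay in 1 Pvalb probe set, with 6744 and 3715 in knockout, against 3126 and 3063 in wild type. Both Pvalb probe sets have a suffix for possible cross-hybridization. The other one was weak, with 34.5 and 176.8 in knockout, against 246.5 and 100.7 in wild type. Elsewhere in this list Myod1 was at log2 0.70, Mylpf at 0.51, Atp2a1 at -0.39 and Myog at -0.29. Atrial markers measured above the filter numbered 5 of 6, of which 4 were higher in knockout without overlap, against 19.9% of all genes tested. Stard10 (log2 1.06) and the atrial light chain Myl4 (1.18) were among them, and Clu was lower (-0.97). A second Myl4 probe set differed less, with 2419 and 2056 in knockout, against 1810 and 1236 in wild type. The summed signal of the atrial list was 31339 and 32342 in knockout, against 35456 and 29250 in wild type. Much of this sum was Clu, with 9841 and 11055 in knockout, against 22402 and 18647 in wild type. The sum therefore does not show the direction of the 4 genes that were higher. Fibroblast markers were higher without overlap for 6 of 7 genes, against the same 19.9%. Their summed signal was 84949 and 89269.5 in knockout, against 62109.5 and 73170.3 in wild type. Much of this sum was Dcn, with 58034 and 58177 in knockout, against 42240 and 50324 in wild type. The smooth muscle sum was 24244 and 16384 in knockout, against 9532 and 8479 in wild type. Most of that difference lay in Acta2, smooth muscle α-actin, with 18753 and 10916 in knockout, against 4135 and 2909 in wild type. Without Acta2 the sums were 5490.5 and 5469 in knockout, against 5397 and 5570.5 in wild type, and the median log2 difference of the 4 smooth muscle genes tested was 0.08. The endothelial sum was 15229 and 14670 in knockout, against 20711 and 16834 in wild type. The leukocyte, erythroid and adipocyte lists had median log2 differences of 0.22, 0.09 and -0.02. None of these markers passed the test. The part of other cell types in the values of Tnni1, Tnnc2 and Tcap was not tested.

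The promoters of the members were read for the DNA element that ERR proteins bind, TNAAGGTCA, for its core AGGTCA, which every such element contains, and for the TATA motif TATAAA, on both strands. Windows ran from 250 bases before to 50 bases after each RefSeq start (build GRCm38.p6), and 26 of the 32 genes had at least 1 window. Tcap, Myom2, Myoz1, Cryab, Xirp1 and Myot had none, so these 26 are not the same as the 26 genes with a probe set. The full element was in 0 of 26 genes, against 1.43% of all 27025 genes with a window. The core was in 4 of 26 (Myl2, Actn2, Mb and Nebl), against 18.1% of all genes, and the TATA motif in 5 of 26 (Myl2, Smyd1, Tnnt1, Myh6 and Trim63), against 15.7%. These are matches of letters in short windows, and they say nothing about binding. The stretches around the core in the 3 measured genes are shown with the match in capitals, since they hold the core of the element of the deleted receptor.
Myl2, chr5:122093031-122093070, plus strand: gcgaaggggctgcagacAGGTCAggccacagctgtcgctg
Actn2, chr13:12340880-12340919, minus strand: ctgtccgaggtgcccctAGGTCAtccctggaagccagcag
Mb, chr15:77022842-77022881, minus strand: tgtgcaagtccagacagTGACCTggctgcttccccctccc
Each is read 5′ to 3′ along the gene's strand, and in Mb the match is on the opposite strand. Log2 differences of these 3 genes were -0.07, 0.41 and -0.27. For Mybpc3 and Smyd1, lower on both knockout arrays, and Tnni1, higher on both, the 60 bases just before the start are shown with any TATA motif in capitals.
Mybpc3, chr2:91118084-91118143, plus strand: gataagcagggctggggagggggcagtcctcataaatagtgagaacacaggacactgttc
Smyd1, chr6:71262282-71262341, minus strand: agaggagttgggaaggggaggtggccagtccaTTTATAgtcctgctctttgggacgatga
Tnni1, chr1:135799361-135799420, plus strand: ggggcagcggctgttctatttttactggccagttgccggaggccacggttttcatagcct
Smyd1 held the TATA motif on the strand opposite to the gene, 28 to 23 bases before its start, and the windows of Mybpc3 and Tnni1 held none of the 3 motifs.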

How the data were processed

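Each deposited value is a probe set's intensity on a linear scale, scaled by the authors so that the mean without the highest and lowest 2% of probe sets came to 1501.2 on each of the 4 arrays. Per the labels' protocols, total RNA was copied with an oligo-dT primer into biotin-labelled cRNA for one-colour Affymetrix arrays. The software, summary method, background correction and build are not given in the sources used here. Depth does not apply to arrays, and their number, 4, limits the precision.

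The genotype in each title gave the group. Symbols came from the platform annotation: of 12422 probe sets, 10833 had 1 symbol (10817 matched to RefSeq, assembly GRCm38.p6), 396 several and 1193 none, and 66 control probe sets were not used. A filter removed probe sets with a mean under the 40th percentile (350.6), and lower signals were raised to a floor at the 20th percentile of all values (110) before taking log2. The genotypes were tested with limma (version 3.58.1, R version 4.3.3; lmFit, eBayes), Benjamini-Hochberg adjusted over all 7453 probe sets, and 95% intervals came from the same fit. List medians used the brightest probe set per gene and carry no test. The labels do not say that the sample numbers pair the arrays, and the fit did not pair them. Deviations from the group means correlated at 0.0113 between replicates of the same number, which cannot show whether the samples were paired.

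The members and lists were chosen with earlier results of these data known. Values on every array are given for members with an unadjusted p under 0.05, a 1.5-fold difference without overlap or a place in an isoform pair, and for others named after their values were seen (Mybpc3, Tcap, Des, Mb, Tpm1, Actn2, Ankrd1, Xirp1, Myoz1, Myom1, Myom2, Myl2 and Myl3). Capza1, Capza2 and Cryab are given by their differences alone. From the other lists the rule took up to 2 genes per direction with the lowest unadjusted p, and names from marker lists on which no result turns were left out. Alternatives changed the floor, filter, normalization, prior, replicate block, arrays and probe sets used. The weaker probe sets of isoform pairs, the marker sums without 1 gene and the values of Pvalb and Dcn were added after the data were seen.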

Additional observations from a re-analysis of the deposited data

How the results depend on the processing

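No sarcomere or Z-disc probe set passed under any of the 13 alternatives to the fit, and the lowest adjusted p any of them reached was 0.399 (with no filter). The number of all probe sets called was 1. It was 2 under a 60th-percentile filter or a robust prior with trend, and 0 with the floor at the 5th or 40th percentile, with no filter, without cross-hybridizing suffixes, with the replicate block and without any 1 array. The block otherwise changed no call. The Esrra log2 difference of -3.08 passed under those same settings (adjusted p = 0.0156 and 0.0059), and ran from -3.17 to -2.99 without each array.

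The median log2 difference of the list was -0.11 and ran from -0.27 to 0.016 without each array, while the other alternatives kept it between -0.16 and -0.10. The count of members at least 1.5-fold higher without overlap was 0, but 1 after quantile normalization and 0 to 4 without each array, and the count lower was 1 and ran from 0 to 2. Of 355 recomputed values of single members, 18 turned sign, all of differences that had not passed, in 13 probe sets. After quantile normalization the stronger Myh7 probe set was at 0.0074 and Myom1 at 0.0052. Without each array the log2 difference ran from -0.024 to 0.85 for Actn2, -0.27 to 0.070 for Capza1, -0.31 to 0.091 for Cryab, -0.38 to 0.047 for Myh6, -0.25 to 0.14 and -0.50 to 0.0090 for the 2 Myh7 probe sets, -0.27 to 0.14 for Myl2, -0.29 to 0.062 for Myl3, -0.23 to 0.15 for Myom1, -0.28 to 0.042 for Tnnc1, -0.18 to 0.070 and -1.14 to 0.26 for the 2 Tnnt1 probe sets and -0.84 to 0.080 for Xirp1. It kept its sign but came near 0 for Tnnc2 (0.022 to 0.57), Tnni3 (-0.27 to -0.046), Capza2 (0.0043 to 0.32) and the weaker tested Capzb probe set (0.026 to 0.43). After quantile normalization the isoform difference was 0.063 for Myh7 against Myh6, 0.068 for Tnnt1 against Tnnt2 and 0.32 for Tnnc2 against Tnnc1. The cause of these shifts was not tested. With 1 array left in a group, that array was assumed to vary like the other group.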
